A study of Mus musculus with 18 samples.

Results

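The 2 negative controls of a microRNA experiment were compared with each other: the control of the miR-200a-3p inhibitor, called here the inhibitor control, and the control of the miR-200a-3p mimic, called the mimic control. The comparison holds 6 of the 18 libraries of the series, 3 a side, assigned to their groups by their labels, and covers all 29112 genes of the deposited count table, of which 15074 had enough reads to be tested. All 6 libraries came from cells labelled HL-1, a line derived from mouse atrial heart muscle cells, which were treated with high glucose, transfected with HiPerFect and harvested 48 h later. The inhibitor control cells received the negative control duplex of the inhibitor and the mimic control cells that of the mimic; sequences and doses of the duplexes and the glucose concentration are not given in the labels. The reference groups, also of 3 libraries each, were cells labelled as high glucose with no transfection named, and high-glucose cells transfected with the inhibitor or with the mimic. The labels give no harvest time for the cells with no transfection named. Against those cells, transfection and time in culture cannot be told apart. The labels give no batch either, so between the 2 controls the duplex and a batch of culture, transfection or library cannot be told apart. Whether replicate libraries derive from independent cultures is not stated in the labels, and p-values here therefore refer only to variation among these samples, some or all of which may be technical.

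A negative control oligonucleotide carries a sequence chosen to have no intended target, so that the response to transfection can be subtracted from the response to the active reagent. Mimics are double-stranded RNAs that enter Argonaute proteins as a microRNA does, and inhibitors are strands that pair with a mature microRNA. Cells can sense foreign RNA through innate immune receptors, which switch on interferon-stimulated genes.

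The 6 libraries held 33676320 to 37928790 counted reads, and for a gene with 0 reads the counting limit of 3 reads corresponds to 0.0842 to 0.0954 CPM (counts per 1e6 reads, scaled by TMM), counting error only. Across genes, log2 CPM correlated at 0.998 to 0.999 between libraries of 1 control and at 0.963 to 0.965 between the controls. Cardiomyocyte markers were present in part. Of the 29 listed, 15 passed the filter, which was set over all groups of the series, among them Tnnt2, Ttn, Myl4, Mef2c and Gata4. Ttn was near the counting limit in the mimic control, at 0.144, 0.127 and 0.0618 CPM. Nppa, Pln, Myl3 and Mybpc3 had 0 reads in both controls. Replicate 2 of the mimic group, which enters through the reagent comparison and the shared estimate of the spread, stood apart by macrophage transcripts: Lyz2 was at 870 CPM there and at 12.7 to 18.6 CPM in the other 17 libraries.

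Most expressed genes differed between the 2 negative controls. Of the 15074 genes tested, 11181 (74.2%) passed an adjusted p of 0.05 in edgeR's quasi-likelihood test, 5796 (38.5%) higher and 5385 (35.7%) lower in the inhibitor control. The called genes had a median change of 1.68-fold in either direction. At 2-fold or more, 2655 genes (17.6%) were higher and 1240 (8.23%) lower; at 8-fold or more, 521 were higher and 29 lower. In 6121 genes (40.6%) all 3 inhibitor control libraries lay above all 3 mimic control libraries, and in 5652 (37.5%) all 3 lay below. The balance of directions depends on the scaling and on a GC content and length correction. With each library's trend on exon GC content and length removed, 41.5% of the called genes were higher, in place of 51.8%. Of those past 2-fold, 54.6% were higher, in place of 68.2%. That fit also recentred the libraries, and the median log2 change of all tested genes moved from 0.04 to -0.12. The part of GC content alone was therefore not separated. Under upper quartile scaling 57.9% of the called genes were higher. The shares of all genes in this paragraph are the background for the counts of list members below.

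**Figure D1:**
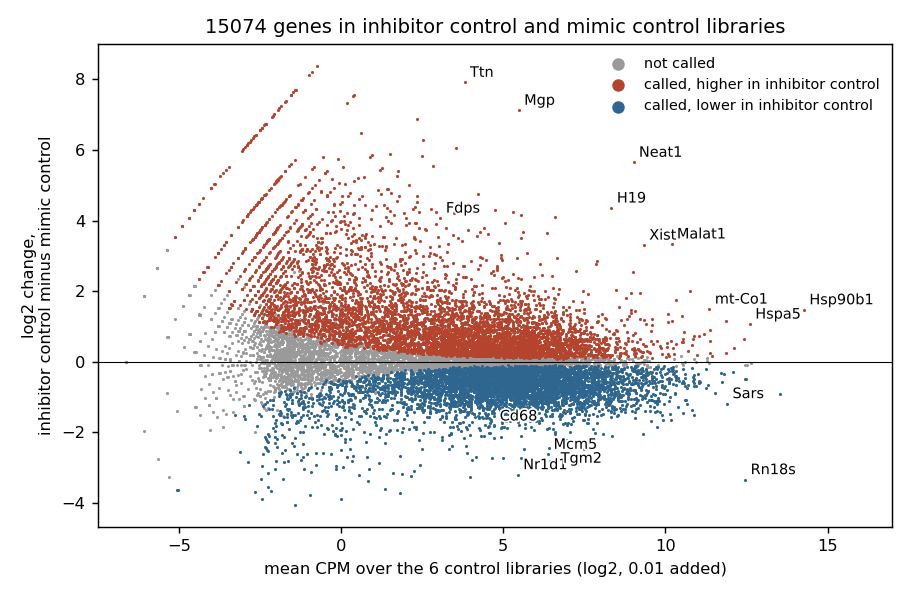
Each point is 1 of the 15074 tested genes, with its mean level over the 6 control libraries on the x axis (log2 CPM) and its log2 change, inhibitor control minus mimic control, on the y axis; coloured points passed the test. The spread is wider upward than downward, with 521 genes at least 8-fold higher and 29 at least 8-fold lower.

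Among the named genes, Ttn had the largest change. Ttn, which encodes the giant sarcomere protein titin (GRCm39, chromosome 2, 76534136 to 76812891, minus strand), was at 30.6, 27.3 and 25.7 CPM in the inhibitor control libraries and at 0.144, 0.127 and 0.0618 CPM in the mimic control libraries. The log2 change was 7.92 ± 0.210 (SE, adjusted p = 8.03e-17), or 242-fold, and 6.29 after the GC and length correction. Mgp, an inhibitor of matrix calcification (chromosome 6, 136849433 to 136852821, minus strand), was at 83.6, 91.6 and 90.2 CPM against 0.662, 0.540 and 0.680 CPM. Its log2 change was 7.13 ± 0.111 (adjusted p = 1.14e-19). In neither gene did the groups come near each other. The untransfected high-glucose cells had 8.88 CPM of Ttn and 78.5 CPM of Mgp.

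Among genes of at least 5 CPM in the inhibitor control, the others that led this direction by log2 change were the matrix genes Spon2 (6.28) and Nid2 (6.05), the embryonic myosin Myh3 (5.83), the myosin light chain Myl1 (5.27), the slow troponin Tnnt1 (4.90), the thin-filament protein nebulin, Neb (4.77), the vascular growth factor Angpt1 (4.77), the chemokine Cxcl12 (4.69), the histamine-forming enzyme Hdc (5.00), the imprinted Zim1 (5.41) and the RNAs Dnm3os (5.89), Neat1 (5.65) and Kcnq1ot1 (4.89). Dnm3os and Kcnq1ot1 are antisense to Dnm3 and Kcnq1, and the strand setting of the counting was not given in the sources used here. Exons of Kcnq1ot1 overlap those of Kcnq1, so reads of that pair cannot be told apart where they overlap. For Dnm3os the annotation used here gave no overlap of exons with Dnm3. Dnm3 itself was at 1.83 CPM in the inhibitor control and 2.03 CPM in the mimic control.

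Changes in the other direction were smaller. Among genes of at least 5 CPM in the mimic control they were led, by log2 change, by Morc1 (-3.71), the ribosomal RNA gene Rn18s (-3.33), the small GTPase Rhov (-3.27), the iron-siderophore binder Lcn2 (-3.23), the clock repressor Nr1d1 (-3.19), von Willebrand factor, Vwf (-3.14), Prss12 (-3.08), the transglutaminase Tgm2 (-3.01), the glycosyltransferase B4galnt2 (-2.91), the arginine synthesis enzyme Ass1 (-2.82), mitochondrial ribosomal RNA, mt-Rnr1 (-2.80), Inka2 (-2.77), Stmn4 (-2.73) and Bpifc (-2.72). Tgm2 was at 21.2, 22.6 and 20.6 CPM in the inhibitor control and at 175, 167 and 177 CPM in the mimic control (SE 0.0744, adjusted p = 3.23e-17). The untransfected cells lay between, at 69.1 CPM. Ass1 was at 28.9, 27.8 and 30.0 CPM against 204, 204 and 205 CPM (SE 0.0680, adjusted p = 2.20e-17), and at 18.9 CPM in untransfected cells.

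The gene lists that follow are read against a median log2 change of 0.04 over all tested genes. For several lists the median change of each control from untransfected high-glucose cells is set beside it; those 2 values share the high-glucose libraries.

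**Figure D2:**
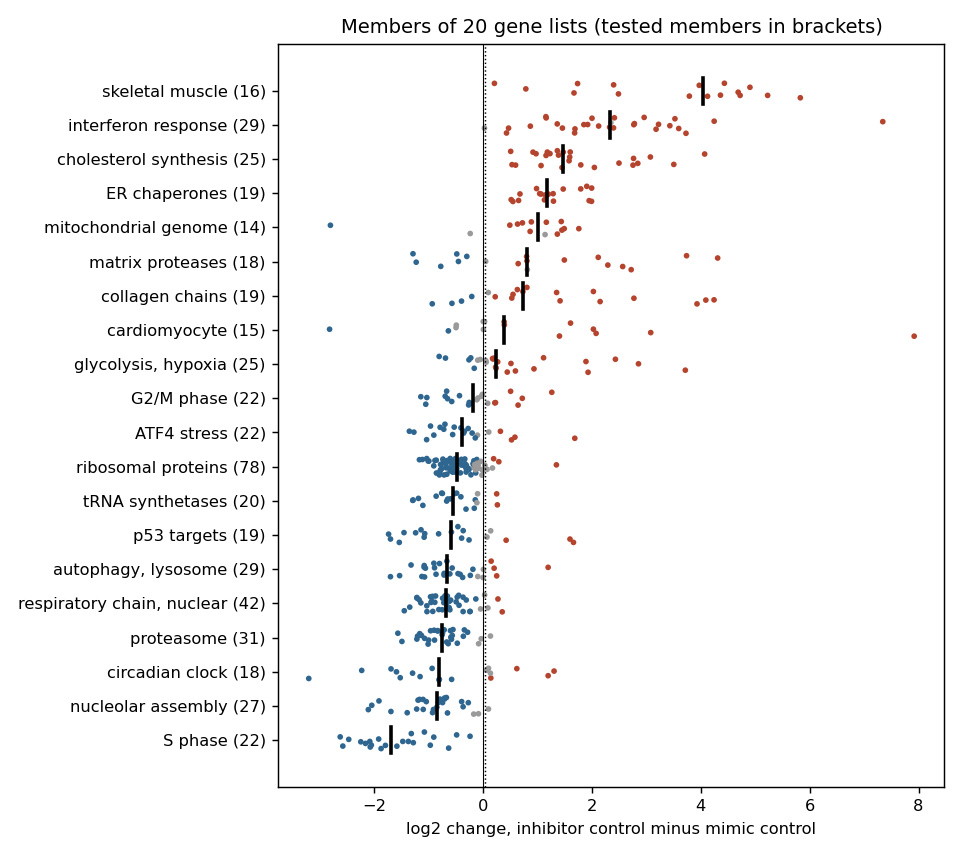
Each point is 1 tested member of a gene list, with its log2 change, inhibitor control minus mimic control, on the x axis; colours mark members called higher or lower, bars mark list medians and the vertical line the median of all tested genes. The skeletal muscle, interferon, cholesterol and endoplasmic reticulum chaperone lists lie to the right and the S phase list to the left.

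Skeletal muscle genes were higher in the inhibitor control. Of 18 listed, 16 passed the filter on low counts, and all 16 were called higher without overlap between the groups; Myh2 and Pax7 had too few reads. The median log2 change was 4.05. The regulators of the muscle programme Myf5 (2.40), Myog (4.69), Myod1 (0.79) and Myf6 (1.74) were among them, as were the fusion gene Mymk (4.13), the fast troponins Tnni2 (3.79) and Tnnt3 (4.36) and the adult myosins Myh4 (5.23) and Myh1 (4.72), these last at under 1 CPM. Myh3, the embryonic heavy chain, was at 11.7, 12.6 and 9.19 CPM in the inhibitor control and at 0.230, 0.223 and 0.124 CPM in the mimic control. The untransfected cells were above both, at 38.9 CPM. Against those cells the list median was -1.22 for the inhibitor control (3 members higher, 11 lower) and -4.35 for the mimic control (0 higher, 16 lower). Since most members had few reads in the mimic control, their entry into the test rested on the inhibitor control or other groups.

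Cardiomyocyte markers were divided. The 15 tested members split into 8 higher, 2 lower and 5 not called (median 0.39). Besides Ttn, the higher members included the cardiac troponin Tnnt2, at 75.8, 64.2 and 59.5 CPM against 15.7, 17.5 and 15.6 CPM (2.03 ± 0.101, adjusted p = 5.39e-13), the transcription factor Mef2c (2.08), the atrial light chain Myl4 (1.61) and the calcium pump Atp2a2 (0.40). The lower members were both cardiac transcription factors: Nkx2-5 (-2.81), at 0.311 against 2.21 CPM, and Gata4, at 8.92, 8.33 and 8.12 CPM against 14.3, 11.6 and 13.4 CPM (-0.63 ± 0.0868, adjusted p = 1.65e-06). Tpm1 (0.01), Tnnc1 (0.03) and Ldb3 (0.01) were not called. Myh6 had 14 and 12 reads over 3 libraries and was not tested. The summed level of the list was 1448 to 1473 CPM in the inhibitor control and 1193 to 1251 CPM in the mimic control.

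Cholesterol synthesis genes were higher in the inhibitor control. These genes carry acetyl-CoA through mevalonate and squalene to cholesterol, and SREBP2, the product of Srebf2, switches them on when membrane sterol falls. All 25 listed genes were tested and called higher without overlap, 20 of them by 2-fold or more, with a median log2 change of 1.48. Hmgcs1, at the entry to the pathway, was at 388, 405 and 419 CPM against 57.3, 61.1 and 60.9 CPM (2.76 ± 0.0533, adjusted p = 2.42e-18). Isoprenoid synthesis held the largest changes: Idi1 was at 74.2, 87.9 and 95.0 CPM against 7.65, 6.61 and 8.31 CPM (3.51 ± 0.121, adjusted p = 3.46e-15). Fdps was at 15.4, 15.8 and 16.1 CPM against 0.949, 0.954 and 0.896 CPM (4.07 ± 0.0999, adjusted p = 2.90e-17). The later enzyme Cyp51 (2.05), the sterol sensor Insig1 (3.08) and Srebf2 (0.60) itself were higher too. Against untransfected cells the list median was 0.22 in the inhibitor control (14 higher, 9 lower) and -1.96 in the mimic control (1 higher, 22 lower). The sterol regulatory element, searched as ATCACNCCAC on both strands, was in the promoters of 0 of 17 members with a RefSeq promoter and in 0.224% of all 10711 genes with one.

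Chaperones of the endoplasmic reticulum (ER) were higher in the inhibitor control. They fold secreted and membrane proteins, and the unfolded protein response raises them through ATF6 and XBP1. All 19 tested members were called higher without overlap, 14 by 2-fold or more, with a median of 1.18. Hspa5, which encodes the chaperone BiP, was at 7857, 8816 and 8645 CPM against 3908, 4086 and 4055 CPM (1.07 ± 0.0503, adjusted p = 2.38e-13) and at 872 CPM in untransfected cells. Hsp90b1, the ER member of the HSP90 family, took 2.80 to 3.20% of all reads in the inhibitor control and 0.927 to 0.973% in the mimic control. The disulfide isomerase Pdia4 was at 2674, 2809 and 2797 CPM against 686, 712 and 673 CPM (2.00 ± 0.0800, adjusted p = 2.54e-14). Dnajc3 (2.00), Creld2 (1.95), Sdf2l1 (1.91) and the degradation factor Edem1 (1.80) followed, and Xbp1 (0.52) had the smallest change. Against untransfected cells the median was 2.20 in the inhibitor control (19 higher) and 0.74 in the mimic control (17 higher, 1 lower).

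The ER stress response element, searched on both strands as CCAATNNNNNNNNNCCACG, was in the promoters (250 bases before to 50 after a gene's start) of 8 of 17 chaperone list members with a RefSeq promoter and in 0.187% of all 10711 genes with one. Hspa5 (chr2:34771840-34772139 on the plus strand) and Creld2 (chr15:88819396-88819695 on the plus strand), chosen after their values were seen, show it in capitals (RefSeq, GRCm38.p6). A match describes the letters and is no measurement of binding.
Hspa5: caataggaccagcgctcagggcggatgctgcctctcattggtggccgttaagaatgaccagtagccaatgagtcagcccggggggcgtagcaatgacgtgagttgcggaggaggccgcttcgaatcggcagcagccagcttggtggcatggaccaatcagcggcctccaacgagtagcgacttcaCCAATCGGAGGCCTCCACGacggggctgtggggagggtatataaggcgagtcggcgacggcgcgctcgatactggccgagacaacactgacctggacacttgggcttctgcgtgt
Creld2: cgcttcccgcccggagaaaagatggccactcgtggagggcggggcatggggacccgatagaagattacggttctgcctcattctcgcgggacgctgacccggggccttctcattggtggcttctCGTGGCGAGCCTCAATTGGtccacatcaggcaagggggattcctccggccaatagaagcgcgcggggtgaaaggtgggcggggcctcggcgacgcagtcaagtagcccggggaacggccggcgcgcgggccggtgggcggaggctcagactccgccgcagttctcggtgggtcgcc

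The other branch of the stress response went mostly the other way. Of 22 genes of the ATF4 list, which serve amino acid supply when translation is restrained, 16 were lower in the inhibitor control and 4 higher (median -0.38). The stress factor Atf3 was at 201, 205 and 197 CPM against 494, 529.9 and 511 CPM (-1.35 ± 0.0518, adjusted p = 1.48e-14). Atf5 (-1.26), Nupr1 (-1.03), Sesn2 (-0.96), the asparagine synthetase Asns (-0.78) and Trib3 (-0.90) were lower, while the cystine transporter Slc7a11 (1.69) was higher. Ddit3 (-0.10, adjusted p = 0.135) was not called. Transfer RNA synthetases were lower in 16 of 20 tested and higher in 2 (median -0.55), led by Aars (-1.29), Yars (-1.28) and Sars (-1.18). Against untransfected cells the ATF4 list median was 1.67 in the inhibitor control and 2.14 in the mimic control. The CEBP-ATF element TGATGNAA, searched on both strands, was in 7 of 20 ATF4 list promoters and in 2.88% of all genes with one.

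Interferon-stimulated genes were higher in the inhibitor control. They encode RNA sensors, antiviral effectors and the factors that amplify the response. Among the 29 that could be tested, 27 were higher and 0 lower (median 2.33). Adar (0.03) and Oasl1 (2.35, with 18 and 3 reads) were not called. Members with few reads in the mimic control, such as Rsad2 (0.719 against 0.0521 CPM), entered the test through the inhibitor control or other groups. The RNA sensors Ifih1 (2.77), Ddx58 (1.69) and Dhx58 (3.23) and the RNA-activated kinase Eif2ak2 (1.46) were higher. Among the effectors, Ifit3 was at 13.9, 13.8 and 15.9 CPM against 0.834, 0.668 and 0.773 CPM (4.25 ± 0.155, adjusted p = 7.10e-15). Oasl2 was at 18.5, 20.8 and 21.6 CPM against 1.58, 1.75 and 1.70 CPM (3.60 ± 0.117, adjusted p = 1.43e-15). Mx2 was at 8.50, 9.12 and 8.47 CPM against 0.777, 0.731 and 0.742 CPM (3.53 ± 0.166, adjusted p = 2.31e-13). The signalling factors Irf7 (2.01) and Stat2 (1.86) were higher as well. Against untransfected cells, where Ifit3 was at 4.40 CPM, the list median was 1.07 in the inhibitor control (24 higher, 3 lower) and -1.19 in the mimic control (5 higher, 20 lower).

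The interferon-stimulated response element, searched on both strands as GAAANNGAAA, was in 13 of 21 interferon list promoters and in 3.72% of all genes with one. Ifit3 (chr19:34583279-34583578 on the plus strand) holds 2 matches and Isg15 (chr4:156200769-156201068 on the minus strand, log2 change 1.93) holds 3, shown in capitals and partly overlapping in Isg15 (RefSeq, GRCm38.p6).
Ifit3: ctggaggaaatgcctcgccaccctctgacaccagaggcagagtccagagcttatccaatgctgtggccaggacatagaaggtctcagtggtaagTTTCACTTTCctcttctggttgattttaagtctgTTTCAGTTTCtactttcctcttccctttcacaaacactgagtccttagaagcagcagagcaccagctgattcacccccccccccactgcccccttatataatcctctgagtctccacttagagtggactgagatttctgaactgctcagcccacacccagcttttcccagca
Isg15: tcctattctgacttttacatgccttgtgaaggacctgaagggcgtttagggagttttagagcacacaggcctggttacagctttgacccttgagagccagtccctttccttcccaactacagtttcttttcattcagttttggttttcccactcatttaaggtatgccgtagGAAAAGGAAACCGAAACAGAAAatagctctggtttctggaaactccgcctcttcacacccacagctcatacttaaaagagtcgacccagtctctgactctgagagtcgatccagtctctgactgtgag

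Antigen presentation was mixed. Of 13 tested genes of the class I pathway, 6 were higher and 3 lower (median 0.39), with H2-T23 (1.92), H2-T22 (1.14), the immunoproteasome subunit Psmb10 (0.74) and the peptide transporter Tap2 (0.68) higher and the class I light chain B2m (-1.07) lower. Of 17 NF-kB targets, 4 were higher and 7 lower, with Il6 (-2.07), Cxcl1 (-1.57), Tnf (-1.37) and Nfkb2 (-0.97) lower and Cxcl5 (0.92) higher. Cxcl5 was not called with the GC and length correction (0.19, adjusted p = 0.161), and Tnf not without replicate 3 of the inhibitor control (adjusted p = 0.0647) or replicate 2 of the mimic control (0.0820). Il6 and Tnf were below 2 CPM in both controls. In untransfected cells Cxcl1 was at 648 CPM, against 4.34 and 12.9 CPM in the controls.

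DNA replication genes were lower in the inhibitor control. All 22 S phase genes, which cover the replicative helicase and its loaders, DNA polymerase and nucleotide synthesis, were called lower, 17 of them by 2-fold or more, with a median of -1.68. The helicase subunit Mcm5 was at 23.5, 23.6 and 23.1 CPM in the inhibitor control and at 142, 142 and 146 CPM in the mimic control (-2.62 ± 0.0535, adjusted p = 4.42e-18). Mcm3 was at 57.9, 52.5 and 55.7 CPM against 305, 314 and 296 CPM (-2.46 ± 0.0588, adjusted p = 2.12e-17). Mcm2 (-2.24) and the loaders Cdt1 (-2.57) and Cdc6 (-2.15) changed by similar amounts, and the sliding clamp Pcna (-0.63) and the cyclin Ccne2 (-0.23) by less. Ccne2 (adjusted p = 0.0422) was the member in which the groups overlapped. Against untransfected cells, where Mcm5 was at 6.59 CPM, the list median was 0.71 for the inhibitor control (16 higher, 3 lower) and 2.36 for the mimic control (21 higher, 1 lower).

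E2F factors control many of these genes, and their site, searched as TTTCCCGC or TTTGGCGC on both strands, was in 8 of 17 S phase promoters and in 3.31% of all genes with one. Mcm3 (chr1:20820263-20820562 on the minus strand) and Mcm6 (chr1:128359656-128359955 on the minus strand, log2 change -2.05) each hold 2 matches, in capitals (RefSeq, GRCm38.p6).
Mcm3: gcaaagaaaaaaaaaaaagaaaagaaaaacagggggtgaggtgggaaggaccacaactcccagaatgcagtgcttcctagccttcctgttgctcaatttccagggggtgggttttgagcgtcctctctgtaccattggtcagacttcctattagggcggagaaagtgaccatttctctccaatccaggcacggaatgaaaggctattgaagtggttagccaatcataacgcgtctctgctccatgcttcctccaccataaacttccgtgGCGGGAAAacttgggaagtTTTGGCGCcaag
Mcm6: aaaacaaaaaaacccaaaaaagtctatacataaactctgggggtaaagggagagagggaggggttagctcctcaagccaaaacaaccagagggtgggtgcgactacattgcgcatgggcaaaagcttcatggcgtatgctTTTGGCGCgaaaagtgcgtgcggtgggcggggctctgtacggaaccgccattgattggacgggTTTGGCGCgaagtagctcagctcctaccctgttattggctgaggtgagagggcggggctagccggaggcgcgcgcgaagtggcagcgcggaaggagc

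Mitosis genes were divided. Of 22 G2/M genes, 6 were higher and 11 lower, with a median of -0.17, or 3 higher and 14 lower (median -0.52) after the GC and length correction. The spindle genes Aurka (-1.14), Prc1 (-1.05) and Tpx2 (-1.03) were lower, while Ccnb2 (0.73) and the kinetochore gene Cenpf were higher, Cenpf at 206, 226 and 219 CPM against 88.3, 91.9 and 90.3 CPM (1.27 ± 0.0707, adjusted p = 2.90e-12). Against untransfected cells all 22 were higher in each control, by a median of 2.12 and 2.14. Of 19 p53 targets, 14 were lower and 3 higher (median -0.58). Cdkn1a, which encodes the cell-cycle inhibitor p21, was at 57.7, 59.9 and 58.1 CPM against 199.8, 188 and 194 CPM (-1.73 ± 0.0522, adjusted p = 5.27e-16), and at 278 CPM in untransfected cells. Fas (-1.69) and Gdf15 (-1.53) were lower, and Rrm2b (1.67) and Sesn1 (1.60) higher.

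Genes that make and degrade proteins were mostly lower in the inhibitor control. Of 27 nucleolar genes of ribosome assembly, 24 were lower and 0 higher (median -0.84). Rrp12 was at 130.1, 117 and 127 CPM against 509.7, 570.3 and 525 CPM (-2.10 ± 0.0733, adjusted p = 4.13e-15), and the others in front were Nop56 (-2.04) and Rrp9 (-1.91). Of 78 ribosomal protein genes, 61 were lower and 3 higher (median -0.48), 4 of them lower by 2-fold or more; as a class they took 3.67 to 3.86% of reads in the inhibitor control and 4.52 to 4.55% in the mimic control. Of 31 proteasome genes, 28 were lower and 0 higher (median -0.74), led by the ATPases Psmc2 (-1.56) and Psmc4 (-1.48). Of 29 autophagy and lysosome genes, 22 were lower and 4 higher (median -0.66), led by Atg7 (-1.69), the proton pump subunit Atp6v0d1 (-1.53) and the hexosaminidase Hexa (-1.32). Against untransfected cells the proteasome median was -0.28 in the inhibitor control and 0.43 in the mimic control.

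Nuclear and mitochondrial genes of the respiratory chain gave different counts. Of 42 nuclear entries, 37 were lower in the inhibitor control and 2 higher (median -0.67), led by the complex I subunits Ndufa10 (-1.44) and Ndufv1 (-1.34), with Uqcrc1 (-1.21) of complex III. Of 14 tested genes of the mitochondrial genome, 11 were higher and 1 lower (median 1.02). With the GC and length correction 2 were higher and 5 lower (median -0.55), so the direction of the list flips with that correction. The median exon GC content of the list is 36.5%, against 48.7% over all tested genes. The oxidase gene mt-Co1 was at 3702, 4003 and 3913 CPM against 1499, 1265 and 1356 CPM, a log2 change of 1.50 (adjusted p = 1.90e-12), or 0.59 with the correction. The ribosomal RNA gene mt-Rnr1 was lower with and without it, at -4.22 and -2.80.

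Among matrix genes the collagens were mostly higher in the inhibitor control, with 14 of 19 chains higher and 4 lower (median 0.74). Col6a1, a chain of the microfibril collagen VI, was at 183, 182 and 185 CPM, against 10.7 ± 0.315 CPM (SD, n = 3) in the mimic control (log2 change 4.10 ± 0.0920, adjusted p = 1.03e-17), and Col6a2 (4.25) and Col12a1 (3.93) changed by similar amounts. The untransfected cells had 624 CPM of Col6a1, above both controls. Of 20 matrix glycoproteins, 12 were higher and 6 lower, with Efemp1 (4.01), Thbs1 (3.66) and Bgn (2.42) higher, and of 18 matrix proteases 10 were higher and 6 lower, led by Mmp3 (4.31), Mmp10 (3.74) and Adamts5 (2.72). Of 26 genes of TGF-beta and activin signalling, 12 were higher and 10 lower, and the activin subunits differed in direction, Inhbb (3.69) higher and Inhba (-1.54) lower. The ligand Bmp4 (3.25) and the antagonist Grem1 (2.87) were higher.

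Several long nuclear RNAs were far higher in the inhibitor control. Neat1, the scaffold of nuclear paraspeckles (chromosome 19, 5874736 to 5897132), was at 973, 1075 and 999 CPM against 18.4, 21.3 and 20.9 CPM (5.65 ± 0.505, adjusted p = 3.52e-09). Malat1, of nuclear speckles, was at 2317, 2144 and 1907 CPM against 211, 207 and 211 CPM (3.34 ± 0.200, adjusted p = 8.34e-12). Xist, which coats the inactive X chromosome, was at 1058, 1230.0 and 1231 CPM against 121, 117 and 117 CPM (3.31 ± 0.156, adjusted p = 2.48e-13) and at 30.8 CPM in untransfected cells. With the GC and length correction these 3 changes were 5.37, 3.03 and 2.68. The list of nuclear RNAs did not move as one: of 10, 6 were higher and 1, Snhg12 (-0.65), lower, and 5 were higher and 4 lower with the correction; Meg3 (-0.01), Norad (0.04) and Pvt1 (0.00) were not called without it. Of 846 annotated lncRNA genes, 52.7% were higher and 12.1% lower (median 0.80), against 4905 higher (37.6%) and 5089 lower of 13059 protein-coding genes.

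Imprinted genes included some of the largest changes, with 6 of 14 higher and 3 lower. The RNA H19 was at 618, 632 and 599 CPM against 27.5, 31.7 and 31.0 CPM (4.36 ± 0.0934, adjusted p = 6.54e-18), and at 2300.5 CPM in untransfected cells, above both. Peg3 (2.85) and Igf2 (2.45) were higher and Plagl1 (-2.96) lower. Genes on the X chromosome were called higher in 50.9% of 501 (median 0.35) and autosomal genes in 5526 of 14551 (median 0.03), with medians of 0.02 and -0.13 after the GC and length correction.

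The 18S ribosomal RNA gene Rn18s was at 811, 916 and 1324 CPM in the inhibitor control and at 9535, 9819 and 11411 CPM in the mimic control (-3.33 ± 0.182, adjusted p = 2.12e-12), and at 10380.3 CPM in untransfected cells. It took 0.0841 to 0.136% of reads against 0.874 to 1.04%. The gene has near-identical copies, so its unique counts are uncertain. The libraries were made from poly(A) RNA, so these reads are no measure of the ribosomal RNA in the cells. The inhibitor control libraries also held more genes with a read, 21130 to 21379 against 18955 to 19133. The part of these library differences in the other changes was not tested.

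**Figure D3:**
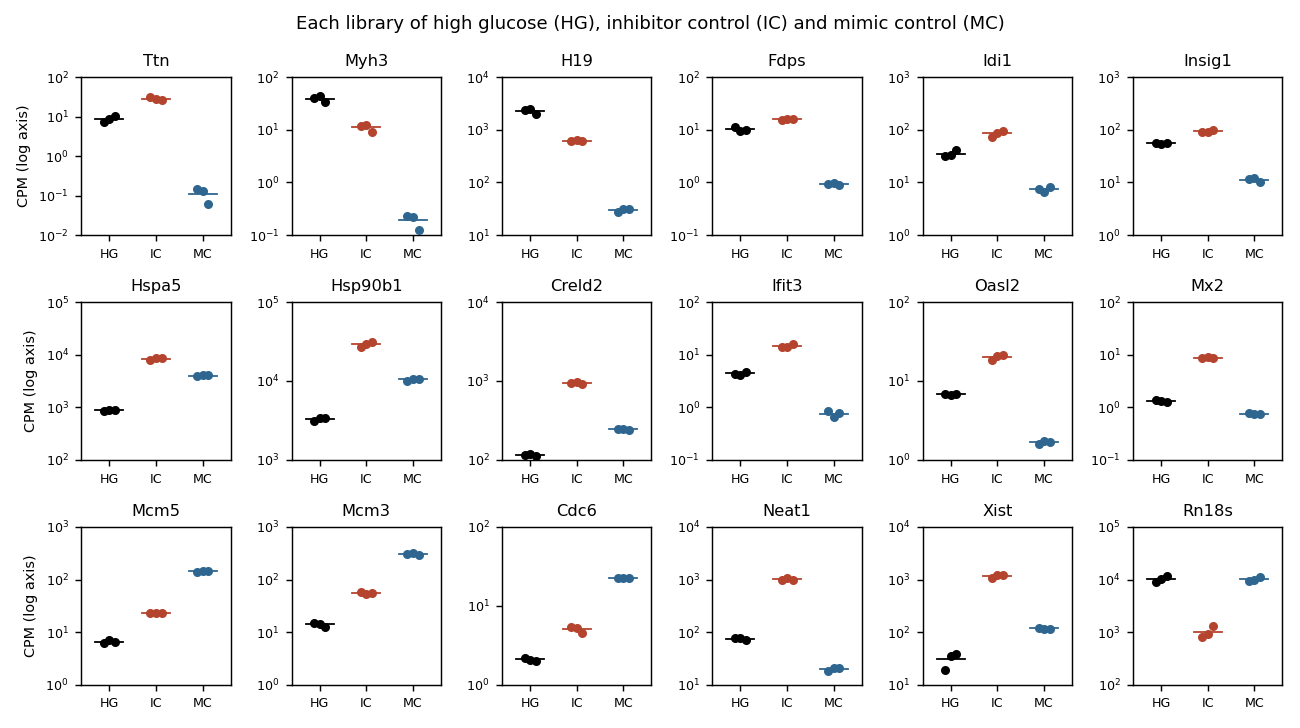
Each panel shows 1 gene in CPM on a log axis, with a point for each library of untransfected high glucose, inhibitor control and mimic control and a line at the group mean. The mimic control is the lowest group for Ttn, Fdps and Ifit3, the inhibitor control is the highest for Hspa5 and Hsp90b1, and the mimic control is the highest for Mcm5 and Mcm3.

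Hypoxia and clock genes also differed. In the glycolysis and hypoxia list 16 of 25 entries were higher and 5 lower (median 0.24). The hypoxia-responsive members were in front, with Adm (3.72), Ankrd37 (2.86), Car9 (1.93), Pdk1 (1.89) and the mitophagy receptor Bnip3, at 142, 164 and 154 CPM against 28.2, 26.9 and 30.0 CPM (2.44 ± 0.0840, adjusted p = 3.46e-15). Of 18 clock genes, 11 were lower and 4 higher (median -0.80). Nr1d1, the repressor REV-ERB alpha, was at 9.43, 8.25 and 8.12 CPM against 87.2, 72.6 and 76.4 CPM (-3.19 ± 0.0953, adjusted p = 4.17e-16), with 59.0 CPM in untransfected cells; it overlaps Thra on the other strand. The output factors Dbp (-2.22), Tef (-1.68) and Hlf (-1.52) and the repressor Cry1 (-1.58) were lower too. Txnip, a glucose-induced inhibitor of thioredoxin, was at 1.10, 1.18 and 0.607 CPM against 0.633, 0.763 and 0.958 CPM and was not called (0.30, adjusted p = 0.501), and at 417 CPM in untransfected cells.

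Marker lists of other cell types differed in summed level, except the mesenchymal list, whose ranges overlapped. The mesenchymal list summed to 6938 to 7282 CPM in the inhibitor control and 7194 to 7361 CPM in the mimic control, mostly from Vim, at 5645 and 6007 CPM (-0.09, adjusted p = 0.129). Of its 16 tested members, 9 were higher and 3 lower (7 and 6 with the GC and length correction). The epithelial list summed to 387 to 410 against 300.1 to 313 CPM, with 9 of 17 members higher and 3 lower. Of 13 tested macrophage markers, 1 was called, the lysosomal Cd68, at 12.1, 11.7 and 11.2 CPM against 43.8, 40.9 and 38.8 CPM (-1.81 ± 0.341, adjusted p = 7.55e-05). Lyz2 (-0.24, adjusted p = 0.840) and Csf1r (0.07, adjusted p = 0.962) were not called, but without replicate 2 of the mimic group in the fit Lyz2 was, at -0.27 (adjusted p = 0.00455). That fit called 2 members of the list lower and 1 higher. The macrophage list summed to 38.6 to 46.3 CPM in the inhibitor control and 69.8 to 75.1 CPM in the mimic control. Most of that gap came from Cd68 alone. Of 10 endothelial markers 5 were tested: Vwf (-3.14) and Cdh5 (-2.15) were lower and Tek (0.92) higher (adjusted p = 0.0339, and 0.141 in DESeq2). The list summed to 1.59 to 1.89 against 6.46 to 7.18 CPM, a gap mostly from Vwf, at 0.613 against 5.44 CPM. The skeletal muscle list summed to 145 to 163 against 60.7 to 61.3 CPM. In bulk samples, fewer cells of a type and less RNA per cell cannot be told apart.

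Genes detected in 1 control only were all on one side. With at most 3 reads over the 3 libraries of one control and a mean of at least 1 CPM in the other, 16 genes were detected in the inhibitor control only, 9 of them not predicted gene models, and 0 in the mimic control only. The antiviral enzyme Oas2 had 235 reads against 1, at 2.08, 2.24 and 2.34 CPM in the inhibitor control libraries. Trdn, which anchors the calcium release channel in muscle, had 125 reads against 0, and the Wnt antagonist Sfrp2 had 111 against 0. Set against a floor of 3 reads over the group, these were at least 38.8-fold and at least 34.5-fold higher. The others were Ifi27l2a (152 reads against 3), Lmod3 (146 against 3), Fmo2 (140 against 2), Mme (115 against 2), Scn7a (110 against 2) and Fap (109 against 3).

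The microRNA that the active reagents address, miR-200a-3p, is shown with its seed, bases 2 to 8, in capitals (RefSeq, GRCm38.p6, chr4:156054911-156054932 on the minus strand).
miR-200a-3p: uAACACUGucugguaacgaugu
Genes with an 8mer match to it, CAGTGTTA, in an annotated 3′ untranslated region were called higher in the inhibitor control in 49.6% of 685 (median 0.21), and genes with no seed match in 34.6% of 9351 (median -0.05). With the GC and length correction the medians were -0.07 and -0.18. Zeb1 and Zeb2, transcription factors of the mesenchymal state and published targets, were both higher before the correction. Zeb1 was at 71.5, 69.0 and 68.9 CPM against 44.6, 42.0 and 45.1 CPM (0.67 ± 0.0638, adjusted p = 8.97e-09), and 0.33 on the log2 scale with it. Zeb2 was at 401, 388 and 373 CPM against 241, 247 and 236 CPM (0.68 ± 0.0657, adjusted p = 1.10e-08), but 0.09 with it (adjusted p = 0.0976). In the 16 published targets, 6 were higher and 7 lower (median -0.11), and 4 and 10 with the correction, or 7 and 6 under upper quartile scaling.

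Base composition moved with the comparison. The tested genes were divided into 5 equal bins by exon GC content. Genes in the bin with the lowest GC content were called higher in 61.6% (median log2 change 0.52), and the share was 44.3%, 33.7%, 28.1% and 24.5% in the following bins, with a median of -0.25 in the highest. Across the corrected and uncorrected fits, 9587 genes were called in the same direction and 387 in opposite directions. With the correction, cholesterol synthesis had 25 members higher (median 1.45), skeletal muscle 16 higher (4.00), interferon 28 higher (2.07), ER chaperones 18 higher (1.08) and S phase 22 lower (-1.96). The splicing factors of the SR and hnRNP families turned from 8 higher and 9 lower to 5 and 17, and to 14 and 6 under upper quartile scaling. What produced the trend was not tested.

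**Figure D4:**
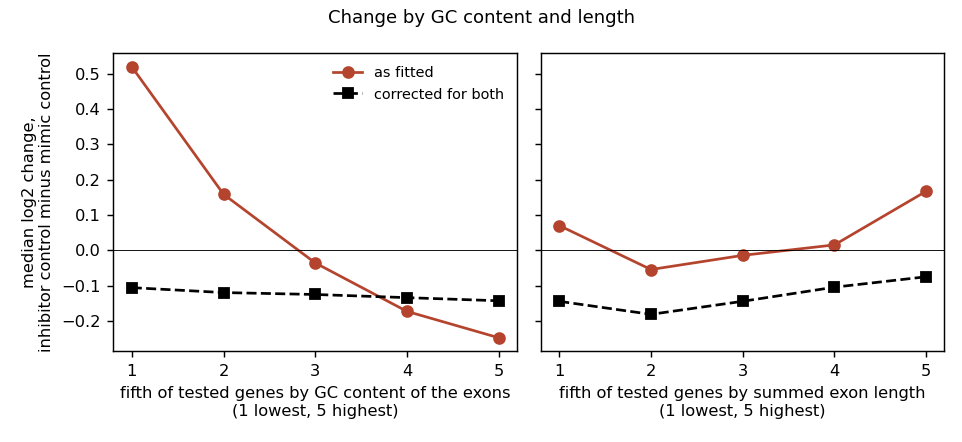
Points are the median log2 change, inhibitor control minus mimic control, of the tested genes in 5 equal bins by exon GC content and by exon length, as fitted and with the correction. The fitted medians run from 0.52 to -0.25 over the GC bins, and the corrected ones from -0.11 to -0.14.

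The same question was asked of the active reagents, which share no library with the controls. A batch that a reagent shared with its control cannot be told apart here from the reagents themselves. Inhibitor against mimic gave 10750 called genes (71.3%). Called in the same direction in both comparisons were 9522 genes, 85.2% of the control calls and 88.6% of the reagent calls, and 57 were called in opposite directions. Of the 3895 genes that differed 2-fold or more between the controls, 3595 (92.3%) were called the same way between the reagents. Across the 15074 genes, which are not independent replicates, the log2 changes correlated at 0.869 (Pearson's r) and 0.896 (Spearman's rho), and at 0.909 and 0.920 without replicate 2 of the mimic group. The list medians for controls and reagents were 1.48 and 1.52 for cholesterol synthesis, 2.33 and 2.01 for interferon, 4.05 and 4.04 for skeletal muscle, 1.18 and 1.37 for ER chaperones and -1.68 and -1.42 for S phase. Ttn was at 32.4 CPM under the inhibitor and at 0.231 CPM under the mimic, beside 27.9 and 0.111 CPM in their controls.

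The difference between the 2 comparisons was itself called for 1993 genes (13.2%), and for 1582 without replicate 2 of the mimic group. Of the 1993, 698 were more positive and 1295 more negative in the controls; among those at 2-fold or more the balance was the other way, with 54 and 23. The smooth muscle actin Acta2 was at 163, 154 and 153 CPM in the inhibitor control and at 176, 169.7 and 174 CPM in the mimic control (-0.15, adjusted p = 0.0189, but -0.04 and adjusted p = 0.506 under upper quartile scaling). Between inhibitor and mimic it changed by 0.45, a difference of -0.60 (adjusted p = 0.000155). Zeb2 changed by 0.68 between the controls and by 0.09 between the reagents (difference 0.59, adjusted p = 0.000859). Zeb1 changed by 0.67 and 0.77 (difference -0.10, adjusted p = 0.512).

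**Figure D5:**
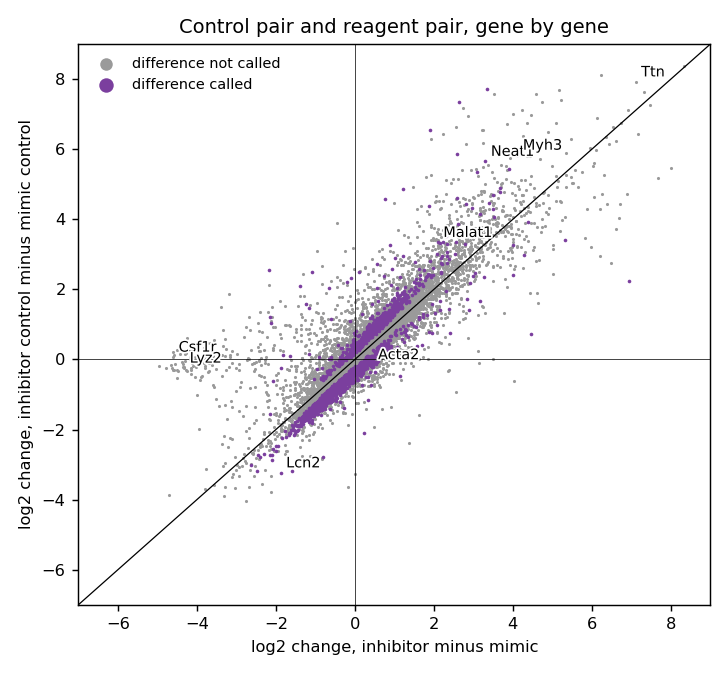
Each point is a tested gene, with its log2 change between inhibitor and mimic on the x axis and between inhibitor control and mimic control on the y axis; the line marks equal changes and the coloured points are the 1993 genes whose changes differed in the test. Lyz2 and Csf1r lie near 0 in the controls and far to the left, where replicate 2 of the mimic group sets their reagent change.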

How the data were processed

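Poly(A) RNA of 18 HL-1 libraries was sequenced in read pairs; this text uses the 6 negative control libraries, with the other groups as reference. Per the labels' protocols, the authors trimmed reads with the FASTX-Toolkit, aligned them with HISAT2 to GRCm39 and counted uniquely mapped reads. They deposited raw counts in one table and FPKM values in another, both by gene. HISAT2 and DESeq2 are named in the submitters' processing notes, without versions; for the counting program, strand setting and annotation release the sources used here give nothing. No batch is given in the labels.

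From the counts, edgeR 4.0.16 (R 4.3.3) fitted a quasi-likelihood model to all 18 libraries with 1 term a group, TMM scaling and filterByExpr (minimum count 10, total 15), with 12 residual degrees of freedom. A gene was called at a Benjamini-Hochberg adjusted p under 0.05 over 15074 genes. CPM are scaled by TMM. The fit was tested on simulated data with few changed genes, balanced in direction, and no GC trend. That test does not show how the scaling behaves where most genes differ. Alternatives were DESeq2 1.42.0, its size factors, upper quartile scaling, no filter, the 6 control libraries alone, leaving out each library, a replicate block, limma 3.58.1 on log2(FPKM + 1) and log2(FPKM + 0.1), and, chosen after seeing the data, a GC content and length correction. Of 29112 genes, 28849 (99.1%) matched GENCODE M39 by identifier, which gave positions, GC content and 3′ untranslated regions. Depth was 33676320 to 37928790 reads in the control libraries.

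Genes were named by rule: up to 15 in each direction with the largest change, at least 5 CPM, no overlap and an established symbol (predicted gene models left out); up to 5 called members of each list; genes detected in 1 control only; the 5 most reversed between comparisons; and a short fixed set. Other list members named as landmarks of a pathway, and the promoters printed, were chosen after their values were seen. The comparison and the lists were chosen with earlier results of these data known. Some genes that the rule selects are not reported here.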

Additional observations from a re-analysis of the deposited data

Results flagged for a closer look

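The change between the controls differed from the change between inhibitor and mimic, by a test of the difference in edgeR's quasi-likelihood fit, for 1993 genes. Among the named genes, the difference of the log2 changes, controls minus reagents, was 2.35 for Neat1 (adjusted p = 0.0161), 1.71 for Myh3 (adjusted p = 0.00998), 1.36 for Mmp3 (adjusted p = 0.00829), 1.24 for Malat1 (adjusted p = 0.00511), 1.23 for Kcnq1ot1 (adjusted p = 0.0494), 1.19 for Cxcl12 (adjusted p = 0.0103), 1.14 for Xist (adjusted p = 0.00177), 1.09 for Angpt1 (adjusted p = 0.00430) and -1.36 for Lcn2 (adjusted p = 0.00867). In these 9 genes both comparisons had the same sign and the controls differed more.

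Opposite signs were called for Angptl4 (difference -0.67, adjusted p = 0.000959), St6gal1 (0.66, adjusted p = 0.00847), Fat1 (-0.65, adjusted p = 0.000144), Mfge8 (-0.63, adjusted p = 0.000102) and Acta2 (-0.60, adjusted p = 0.000155), which were chosen for that reversal. Their changes between the controls were small, and of these genes only Mfge8 kept that call under all alternatives. Angptl4 (adjusted p = 0.178), Fat1 (0.706) and Acta2 (0.506) lost it in edgeR with upper quartile scaling, and in both limma fits. St6gal1 lost it without replicate 1 or 2 of the inhibitor control (0.0608 and 0.0686) or replicate 2 of the mimic control (0.0872).

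Replicate 2 of the mimic group enters these differences. Without it the difference for Neat1 was 0.92 (adjusted p = 0.000145); that library had 222 CPM of Neat1 against 36.3 and 37.1 CPM in the other mimic libraries, and the difference for Kcnq1ot1 was 1.12 and no longer called (adjusted p = 0.113). The differences for St6gal1 (0.53, adjusted p = 0.0194) and Mfge8 (-0.60, adjusted p = 7.70e-05) were still called. Their changes between inhibitor and mimic kept their signs but were no longer called (-0.22, adjusted p = 0.0575, and 0.11, adjusted p = 0.0797), with 1 library fewer in the fit.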

How the results depend on the processing

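The number of genes called between the controls was 10800 to 11678 over 16 alternatives, against 11181, with 10800 to 10948 when 1 control library was left out (3893 to 4007 at 2-fold or more, against 3895). The replicate numbers of the 2 controls did not mark shared deviations (correlations of 0.075, -0.106 and 0.091 for equal numbers), and a replicate block gave 11146 calls. limma on log2(FPKM + 1) gave 1090 genes past 2-fold, on a scale that shrinks low genes, and the GC content and length correction left 1325 called differences between the comparisons, against 1993; the cause was not tested. The median of all genes shifted to 0.15 with upper quartile scaling, 0.14 with log2(FPKM + 0.1) and -0.12 with the correction, and the share of calls that were higher was 57.9%, 59.3% and 41.5%.

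Of 3655 values of named genes under the alternatives, 3606 kept direction and side of the threshold, 39 lost the call, 3 gained it and 7 changed sign. The sign changed for Srsf10 with the correction (-0.15), Fat1 with log2(FPKM + 1) and log2(FPKM + 0.1) (0.0035 and 0.0045), Ddx3y with upper quartile scaling (0.00090), and for Ddx3y and Csf1r when 1 control library was left out (-0.37 to 0.11 and -0.16 to 0.26). The larger count changed side in 5 lists. Lower members numbered 8 in fatty acid oxidation with log2(FPKM + 0.1); 6, 5 and 5 in the published targets and 6, 4 and 4 in the YAP list with upper quartile scaling, log2(FPKM + 1) and log2(FPKM + 0.1); and 6, 5 and 5 in the splicing list with those settings, and 8 to 9 when 1 library was left out. Higher members of the mitochondrial genome list numbered 2 with the correction. Depth limited genes near 3 reads, such as Oasl1.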
